A study of Mus musculus with 12 samples.

Results

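Heat shock chaperones are proteins that hold, refold or hand over other proteins. The 10 genes described here are the inducible Hsp70 genes Hspa1b and Hspa1a, the constitutive Hsp70 gene Hspa8, the Hsp110 gene Hsph1, the Hsp70 partners Dnajb1 and Bag3, the cytosolic Hsp90 gene Hsp90aa1, the small heat shock protein gene Hspb1, and the mitochondrial chaperonin pair Hspd1 and Hspe1. They were chosen by measured values: several of them were low together after CLP, against sham, in the knockout-labelled mice, so the values of that comparison are given as a description. Their array features, called probe sets, were found by the platform's gene symbol: 23 of 45037 probe sets belong to the 10 genes, out of 18193 genes named by a single symbol. Of the 23 probe sets, 21 passed a filter on low signals, which asked for 3 or more of the 12 arrays with a signal over that array's median, and all 10 genes kept at least 1 probe set. Where a gene had several, the one with the highest log2 signal averaged over all 12 arrays stands for the gene.

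RNA from whole mouse lung was measured on 12 arrays, with 1 sample per array and 3 samples in each of 4 groups, all taken 8 h after an operation from mice 8 to 10 weeks old. The groups are mice labelled PPTA knockout after CLP (cecal ligation and puncture, which lets gut bacteria into the abdomen and causes sepsis), PPTA knockout after sham surgery, wild-type Balb/c after CLP, and wild-type Balb/c after sham. Tac1, once called PPTA, encodes preprotachykinin A, from which the neuropeptide substance P is cut. No strain is named for the knockout mice, so genotype and strain cannot be told apart. The labels name triplicates without saying that these were separate animals, so p-values measure only the spread between these samples, which may be technical.

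The targeted gene went against its label. Tac1 probe set 1416783_at averaged 413.4 ± 67.1 after CLP and 450.4 ± 75.8 after sham in the knockout-labelled mice, against 10.8 ± 6.21 after CLP and 5.46 ± 2.78 after sham in the wild type (signal, SD, n = 3 each). The other Tac1 probe set, 1431883_at, lay between 1.265 and 15.97 on all 12 arrays and did not pass the filter. The sources used here do not say whether these probe sets fall within the disrupted stretch, so the groups are called knockout-labelled throughout, and every direction between genotypes is drawn between the labels. All 8 markers of lung epithelium passed the filter. Sham array 3 of the knockout-labelled mice stood apart: on it 306 genes exceeded both other arrays of its group by 2-fold or more and 238 fell short by as much, against at most 88 and 186 genes for any other array. In bulk tissue, fewer cells of a type and less RNA per cell cannot be told apart.

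Cells keep Hsp70 proteins of both kinds. Hspa8 encodes the constitutive form, while Hspa1a and Hspa1b are switched on by heat, oxidants and other stress through heat shock factor 1, which binds heat shock elements (repeats of the unit GAA in alternating orientation) in their promoters. J-domain proteins such as Dnajb1 bring clients to Hsp70, exchange factors such as Bag3 and the Hsp110 proteins release them, and Hsp90 takes over clients such as kinases and steroid receptors.

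Signals are linear array intensities scaled by the authors to a common mean on every array. Differences are on the log2(signal + 3.47) scale with their standard error (SE) from a linear model of all 12 arrays, and a gene counts as called at an adjusted p under 0.05. The scaling matters for small differences: the median of all 11862 represented genes for CLP minus sham in the knockout-labelled mice was -0.11 as deposited and 0.11 with arrays centred on their medians, and the calls among all genes turned from 1356 higher and 2359 lower to 2815 higher and 1100 lower.

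Both inducible Hsp70 genes had their lowest group mean on the knockout-labelled CLP arrays and their highest on the knockout-labelled sham arrays. The signal of Hspa1b, probe set 1452318_a_at, was 80.6, 82.9 and 163 on the knockout-labelled CLP arrays, 619, 2921 and 954 on the knockout-labelled sham arrays, 472, 529.9 and 681 on the wild-type CLP arrays and 598, 387 and 219 on the wild-type sham arrays. All 3 knockout-labelled CLP arrays lay below the other 9, and sham array 2 of the knockout-labelled mice lay far above every other array. The means were 108.8 ± 46.9 after CLP and 1498 ± 1240 after sham in the knockout-labelled mice, and 560.9 ± 108 after CLP and 401.1 ± 190 after sham in the wild type (SD, n = 3 each). CLP minus sham came to -3.50 ± 0.49 in the knockout-labelled mice, a ratio of 0.0885, the lowest value among the 11862 represented genes. By mean log2 value the groups ran, low to high, knockout-labelled CLP, wild-type sham, wild-type CLP and knockout-labelled sham. The knockout-labelled sham arrays all lay above the wild-type sham arrays. The arrays of the wild-type groups overlapped, as did those of wild-type CLP and knockout-labelled sham, while the knockout-labelled CLP arrays overlapped with none.

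The other probe sets of Hspa1b had the same 3 arrays lowest and the same array highest. Probe set 1427127_x_at read 56.0, 53.1 and 88.8 (knockout-labelled CLP), 346, 1554 and 600.5 (knockout-labelled sham), 281, 309 and 387 (wild-type CLP) and 515, 276 and 154 (wild-type sham). Probe set 1427126_at read 42.2, 51.4 and 67.8 (knockout-labelled CLP), 236, 1146 and 412 (knockout-labelled sham), 230.5, 231 and 306 (wild-type CLP) and 336, 240 and 82.9 (wild-type sham). On all 3 probe sets the knockout-labelled CLP arrays were the lowest 3 of 12 and sham array 2 of the knockout-labelled mice was the highest. CLP minus sham in the knockout-labelled mice was -3.35 ± 0.48 on 1427127_x_at and -3.11 ± 0.53 on 1427126_at.

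Hspa1a, the neighbouring gene for a nearly identical Hsp70 protein, showed the same picture. Its only probe set, 1452388_at, read 35.4, 33.9 and 51.5 on the knockout-labelled CLP arrays, 119, 579 and 182 on the knockout-labelled sham arrays, 107, 125 and 115 on the wild-type CLP arrays and 116, 114 and 75.7 on the wild-type sham arrays. Again the knockout-labelled CLP arrays were the lowest 3 and sham array 2 of the knockout-labelled mice the highest. The means were 40.2 ± 9.77 after CLP and 293.4 ± 250 after sham in the knockout-labelled mice, and 115.7 ± 8.85 after CLP and 101.9 ± 22.7 after sham in the wild type (SD, n = 3 each), and CLP minus sham in the knockout-labelled mice was -2.46 ± 0.42. The Hspa1a and Hspa1b transcripts are alike enough that probes for one may bind the other, so their signals are not independent readings of separate genes.

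**Figure D1:**
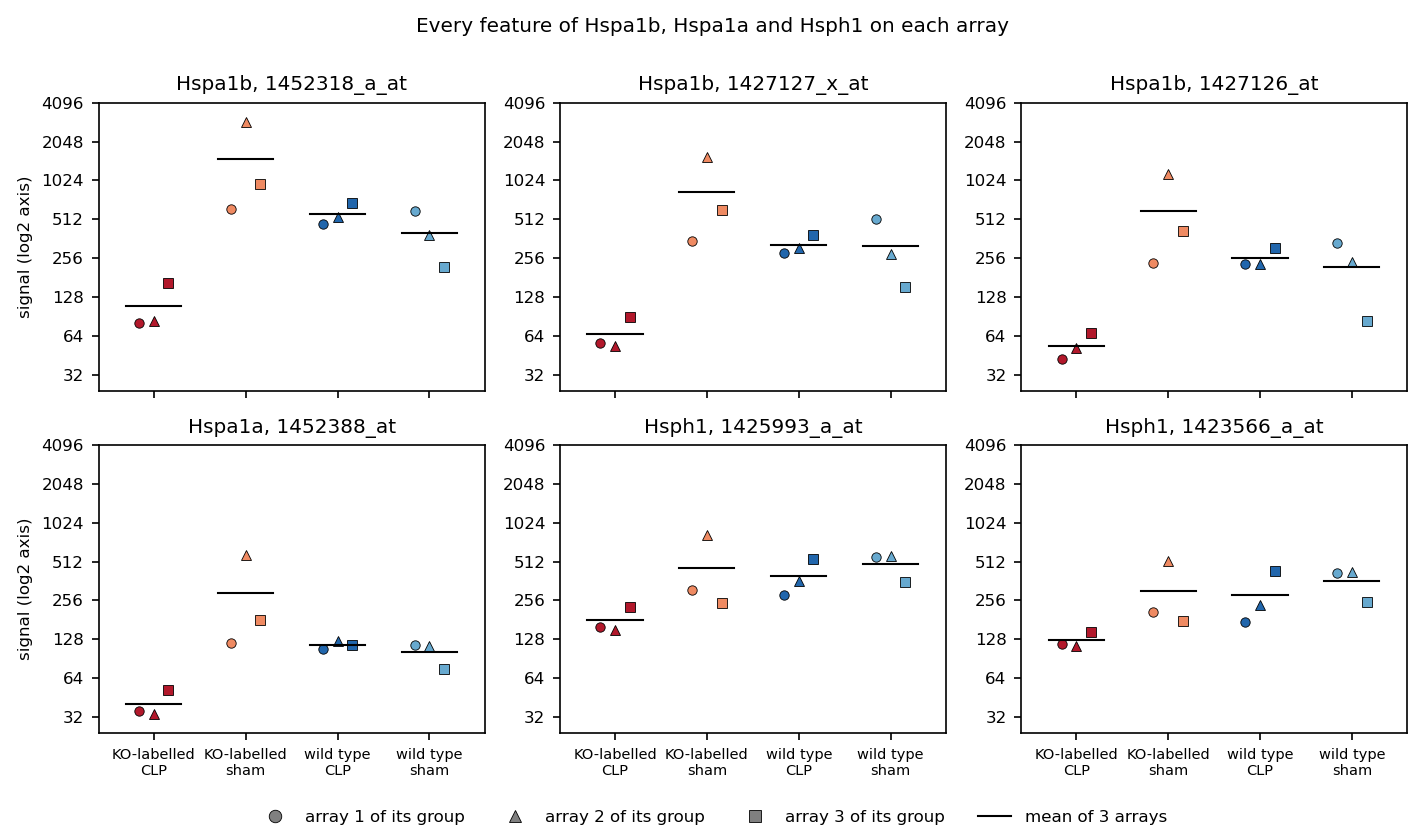
Array signal (log2 axis) of the 3 probe sets of Hspa1b, the 1 probe set of Hspa1a and the 2 of Hsph1, with 1 point per array, the array number as the point's shape and the arithmetic mean of 3 arrays as a line. In every panel the 3 knockout-labelled CLP points are the lowest of the 12 and the highest point is sham array 2 of the knockout-labelled mice.

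The promoters of the inducible Hsp70 genes are nearly the same sequence, which is why 1 of them is shown. RefSeq promoter windows of the GRCm38.p6 build, 250 bases before to 50 bases after a gene's start, were given for 8 of the 10 genes (11 windows), and none was used for Hspa8 and Hsp90aa1. The windows of Hspa1b (chr17:34959189-34959488, minus strand) and Hspa1a (chr17:34972107-34972406, minus strand) share 296 of 300 bases, or 98.7%. Counted from 1 at the 5′ end of the window, with the Hspa1b base first, they differ at T44C, C47T, G249T and T276C. Each holds 1 2-unit heat shock element (GAANNTTC or TTCNNGAA, N being any base, both strands searched), shown in capitals, which begins 104 bases before the start.
Hspa1b: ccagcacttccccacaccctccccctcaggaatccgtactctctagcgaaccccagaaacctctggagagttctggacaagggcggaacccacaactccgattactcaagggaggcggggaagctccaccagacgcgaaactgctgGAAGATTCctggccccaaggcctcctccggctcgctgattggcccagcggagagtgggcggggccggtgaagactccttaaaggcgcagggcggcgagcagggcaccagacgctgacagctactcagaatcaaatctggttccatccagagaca
A 2-unit element occurs in 15.1% of the 32851 RefSeq windows, so a match by itself describes the letters and not a bound site.

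Hsph1, an Hsp110 protein that acts as an exchange factor for Hsp70, was the third gene with a large change. Its representing probe set, 1425993_a_at, read 158, 151 and 229 on the knockout-labelled CLP arrays, 306, 827 and 244 on the knockout-labelled sham arrays, 282, 365 and 536 on the wild-type CLP arrays and 555, 561 and 357 on the wild-type sham arrays. The knockout-labelled CLP arrays were again the lowest 3 of 12, but the other groups overlapped widely, and sham array 2 of the knockout-labelled mice was 3.38-fold above the lowest sham array of that group. The means were 179.2 ± 43.3 after CLP and 459.1 ± 320 after sham in the knockout-labelled mice, and 394.1 ± 130 after CLP and 491 ± 116 after sham in the wild type (SD, n = 3 each). CLP minus sham was -1.15 ± 0.38 in the knockout-labelled mice and -0.63 when sham array 2 was left out. The second probe set, 1423566_a_at, read 118, 114 and 145 (knockout-labelled CLP), 208, 520.2 and 179 (knockout-labelled sham), 175, 236 and 436 (wild-type CLP) and 414, 426 and 247 (wild-type sham), with a difference of -1.08 ± 0.39 in the knockout-labelled mice.

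The Hsph1 window (chr5:149636287-149636586, minus strand) holds 3 2-unit elements, 1 before the start and 2 overlapping ones after it, which join into a 3-unit heat shock element. That 3-unit form is in 0.603% of all windows and in those of 3 of the 8 genes with a window, Hsph1, Hspd1 and Hspe1. The sequence is given because it differs from the Hsp70 promoter above in number and place of the elements, in capitals.
Hsph1: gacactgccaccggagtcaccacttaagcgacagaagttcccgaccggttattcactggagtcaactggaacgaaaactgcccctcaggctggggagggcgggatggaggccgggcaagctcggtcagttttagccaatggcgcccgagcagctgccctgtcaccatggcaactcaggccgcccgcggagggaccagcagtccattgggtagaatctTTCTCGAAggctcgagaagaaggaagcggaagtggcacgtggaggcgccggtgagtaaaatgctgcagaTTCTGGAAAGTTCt
The 2-unit form is in windows of 7 of the 8 genes with a window, all but Dnajb1, and the letters TATAAA (in 13.6% of all windows) are in none of them.

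Hspa8, the constitutive Hsp70, differed little between groups. Probe set 1455789_x_at read 3710, 4284 and 4526 on the knockout-labelled CLP arrays, 3233, 4467 and 4754 on the knockout-labelled sham arrays, 4225, 4157 and 5138 on the wild-type CLP arrays and 4735, 4451 and 4501 on the wild-type sham arrays. Every group overlapped with every other. The differences between group means lay between -0.16 and 0.02 in the 4 comparisons between groups, with an SE of 0.13. With arrays centred on their medians, CLP minus sham in the knockout-labelled mice was 0.25 in place of 0.02.

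Its other probe sets did not all run in parallel. Probe set 1420623_x_at read 3800, 4268 and 4503 (knockout-labelled CLP), 3270, 3658 and 3985 (knockout-labelled sham), 3959, 3885 and 4719 (wild-type CLP) and 4098, 4292 and 3795 (wild-type sham). Probe set 1420622_a_at read 2545, 3323 and 2087 (knockout-labelled CLP), 2451, 1951 and 2970 (knockout-labelled sham), 1963, 1933 and 2402 (wild-type CLP) and 2418, 2221 and 2153 (wild-type sham). The fourth, 1431182_at, was near the array median and read 30.3, 59.9 and 72.0 (knockout-labelled CLP), 35.2, 36.4 and 55.5 (knockout-labelled sham), 42.7, 49.6 and 46.3 (wild-type CLP) and 26.0, 32.2 and 26.5 (wild-type sham), with all wild-type CLP arrays above all wild-type sham arrays, an order that none of the other 3 probe sets shared.

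The J-domain protein gene Dnajb1 gave different answers on its probe sets. Probe set 1416756_at, which represents it, read 492, 669.5 and 453 on the knockout-labelled CLP arrays, 567, 579 and 298 on the knockout-labelled sham arrays, 669, 615 and 583 on the wild-type CLP arrays and 537, 586 and 621 on the wild-type sham arrays. The lowest of the 12 values was sham array 3 of the knockout-labelled mice, and all 3 knockout-labelled sham arrays lay below the 3 wild-type CLP arrays, while every other pair of groups overlapped. Probe set 1416755_at read 366, 514 and 478 (knockout-labelled CLP), 425, 600.2 and 497 (knockout-labelled sham), 393, 364 and 347 (wild-type CLP) and 330.2, 292 and 361 (wild-type sham), and here the knockout-labelled sham arrays all lay above the wild-type sham arrays. Knockout-labelled minus wild type after sham was therefore -0.33 ± 0.22 on the first and 0.62 ± 0.15 on the second probe set, opposite in sign.

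Bag3, an exchange factor that links Hsp70 to autophagy, is read by 1 probe set, 1422452_at. It read 251, 302 and 362 on the knockout-labelled CLP arrays, 454, 477 and 188 on the knockout-labelled sham arrays, 474, 512 and 482 on the wild-type CLP arrays and 387, 402 and 403 on the wild-type sham arrays. After CLP all 3 knockout-labelled arrays lay below all 3 wild-type arrays, with means of 304.9 ± 55.7 and 489.3 ± 20 (SD, n = 3 each). The knockout-labelled sham arrays split, with array 3 the lowest of the 12. Knockout-labelled minus wild type after CLP was -0.69 ± 0.27, and CLP minus sham in the knockout-labelled mice was -0.19 ± 0.27, or -0.62 without sham array 3. Centring the arrays turned its sign, to 0.04.

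Hsp90aa1, the stress-responsive cytosolic Hsp90, differed between groups by small amounts. Probe set 1438902_a_at read 4036, 3882 and 4059 on the knockout-labelled CLP arrays, 4746, 5297 and 4283 on the knockout-labelled sham arrays, 4233, 4782 and 5197 on the wild-type CLP arrays and 4780, 4768 and 4407 on the wild-type sham arrays. The knockout-labelled CLP arrays were within 1.05-fold of each other and below all 9 others. CLP minus sham in the knockout-labelled mice was -0.25 ± 0.09, a ratio of 0.839, and -0.03 with arrays centred on their medians.

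Probe set 1437497_a_at of Hsp90aa1 gave a larger difference, -0.63 ± 0.17, from 1680, 1862 and 1173 (knockout-labelled CLP), 2409, 2791 and 2014 (knockout-labelled sham), 1986, 2112 and 2744 (wild-type CLP) and 2657, 2610 and 2386 (wild-type sham). Probe set 1426645_at gave -0.20 ± 0.15, from 2050, 2125 and 2069 (knockout-labelled CLP), 2461, 2741 and 2014 (knockout-labelled sham), 1788, 1781 and 2547 (wild-type CLP) and 2647, 2454 and 2093 (wild-type sham), and its lowest array was a wild-type CLP array. The knockout-labelled CLP arrays were thus the lowest 3 on the first of these and not on the second. The remaining probe sets of the gene did not pass the filter: 1441827_x_at lay between 0.3 and 12.5 and 1433251_at between 0.917 and 13.8 over the 12 arrays.

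Hspb1, a small heat shock protein that holds unfolded proteins and binds actin, did not share the low knockout-labelled CLP values. Probe set 1422943_a_at read 2594, 3567 and 3555 on the knockout-labelled CLP arrays, 2651, 2755 and 2737 on the knockout-labelled sham arrays, 2144, 2151 and 2984 on the wild-type CLP arrays and 2816, 2948 and 2595 on the wild-type sham arrays. Arrays 2 and 3 of knockout-labelled CLP were the highest of the 12 and arrays 1 and 2 of wild-type CLP the lowest, so the CLP groups differed by 0.42 ± 0.14 while the sham groups differed by -0.04 ± 0.14. Probe set 1425964_x_at read 1918, 2799 and 2809 (knockout-labelled CLP), 2104, 2061 and 2000 (knockout-labelled sham), 1465, 1492 and 2089 (wild-type CLP) and 2127, 2007 and 1741 (wild-type sham), with a difference between the CLP groups of 0.57 ± 0.16.

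Hspd1 and Hspe1 encode the Hsp60 chaperonin and its Hsp10 lid, which fold proteins in the mitochondrial matrix, and lie head to head on chromosome 1. Hspd1 probe set 1426351_at read 920.1, 957 and 1085 on the knockout-labelled CLP arrays, 1228, 1559 and 1008 on the knockout-labelled sham arrays, 1089, 1197 and 1442 on the wild-type CLP arrays and 1333, 1271 and 1152 on the wild-type sham arrays. Hspe1 probe set 1450668_s_at read 869, 839.8 and 904 on the knockout-labelled CLP arrays, 986, 1196 and 1162 on the knockout-labelled sham arrays, 979, 926 and 1243 on the wild-type CLP arrays and 1280, 1129 and 1072 on the wild-type sham arrays. All 3 knockout-labelled CLP arrays of Hspe1 were below the other 9, and those of Hspd1 were so but for sham array 3 of the same mice. CLP minus sham in the knockout-labelled mice was -0.34 ± 0.15 for Hspd1 and -0.35 ± 0.12 for Hspe1, close in size, and -0.11 and -0.12 with arrays centred on their medians. The second Hspe1 probe set, 1422579_at, read 447, 401 and 421 (knockout-labelled CLP), 470.1, 619.5 and 464 (knockout-labelled sham), 450.4, 464 and 575 (wild-type CLP) and 582, 469 and 530.5 (wild-type sham), with a difference of -0.28 ± 0.14 and the same 3 arrays lowest.

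The pair shares its promoter, which is why the stretch is shown once, on the strand of Hspe1 (chr1:55087898-55088197, plus strand). A window of Hspd1 (chr1:55087883-55088182, minus strand) covers the same stretch on the other strand. Each holds 3 overlapping 2-unit elements, in capitals, which make 2 overlapping 3-unit elements.
Hspe1: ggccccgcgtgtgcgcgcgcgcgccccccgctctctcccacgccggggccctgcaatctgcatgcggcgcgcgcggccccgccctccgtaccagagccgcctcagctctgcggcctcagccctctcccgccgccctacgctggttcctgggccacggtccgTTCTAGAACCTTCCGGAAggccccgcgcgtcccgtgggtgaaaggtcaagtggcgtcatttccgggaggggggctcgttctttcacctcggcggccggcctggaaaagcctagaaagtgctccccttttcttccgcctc
Another annotated start of Hspd1 (chr1:55088194-55088493, minus strand) has no element in its window. Elements were also found in the windows of Hspb1 (2), which was not low on the knockout-labelled CLP arrays, and of Bag3 (1), and none in either window of Dnajb1.

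**Figure D2:**
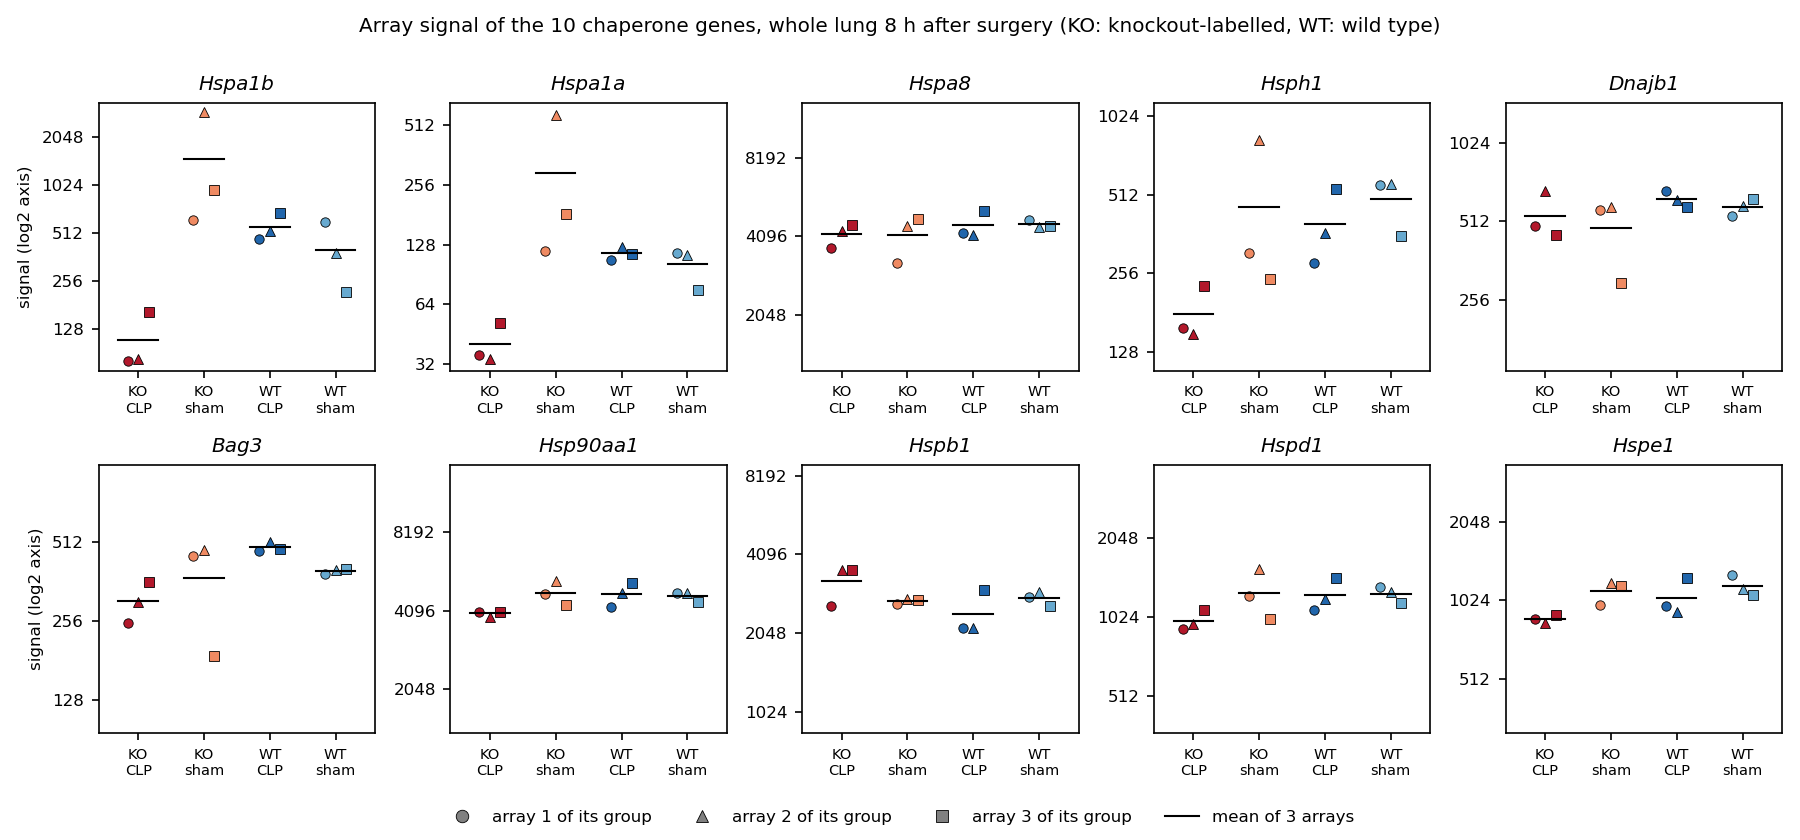
Array signal (log2 axis) of the 10 chaperone genes by their representing probe sets, 3 arrays in each of 4 groups, with shapes for the array number and a line at the arithmetic mean. Hspa1b, Hspa1a and Hsph1 span the widest ranges, with low knockout-labelled CLP arrays and a high sham array 2, while Hspa8, Hsp90aa1, Hspb1, Hspd1 and Hspe1 stay within narrower bands.

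Counted over the 10 genes, the knockout-labelled CLP arrays were below the other 9 arrays for 5 genes (Hspa1b, Hspa1a, Hsph1, Hsp90aa1 and Hspe1), where 13.4% of the 11862 genes had that pattern, and above the other 9 for 0 genes, where 8.16% had it. In CLP minus sham of the knockout-labelled mice, the same 5 genes were called lower and 0 higher, where 19.9% of all genes were called lower and 11.4% higher. These arrays chose the genes, so nothing is read from either count. The median difference of the 10 genes was -0.30, and that of all genes was -0.11. Of the 5 genes, Hspa1b and Hspa1a were called in all 12 fits that left out 1 array, Hsph1 in 6, Hspe1 in 4 and Hsp90aa1 in 3. Those fits also rest on the arrays that chose the genes. A kept call there describes the dependence on single arrays and is no test. With arrays centred on their medians, Hspa1b (-3.27) and Hspa1a (-2.23) were called lower, Hspb1 (0.46) was called higher, and Hsph1 (-0.93), Hsp90aa1 and Hspe1 were not called. The count of 5 was 2 or 3 without any of 8 arrays (knockout-labelled CLP 1, 2 or 3, knockout-labelled sham 2, wild-type CLP 2, wild-type sham 1, 2 or 3), was 4 or 5 without 3 others and reached 6 without knockout-labelled sham 3.

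The sham arrays of the knockout-labelled mice were uneven, and not in the same way for every gene. Against the mean of the other sham arrays of its group, array 2 was higher by 1.92 for Hspa1b, 1.95 for Hspa1a, 1.58 for Hsph1, 0.70 for Bag3 and 0.49 for both Dnajb1 and Hspd1 (log2). Array 2 was the highest of all 12 arrays for 5 of the 10 genes (Hspa1b, Hspa1a, Hsph1, Hsp90aa1 and Hspd1), where 12% of all genes had their highest value on it. It is among the arrays that chose the genes, so nothing is read from that count. Array 3 instead was lower than the mean of its partners by 1.29 for Bag3, 1.03 for Hsph1 and 0.94 for Dnajb1 (values in log2). Array 3 had the second highest Hspa1b signal of the 12 arrays, so low Bag3 and a low Dnajb1 probe set 1416756_at stood on that array beside high Hspa1b. The other Dnajb1 probe set, 1416755_at, was not low there: its 497 was the third highest of the 12 arrays.

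The spread within the group was wide even beside other genes. The log2 range over the 3 knockout-labelled sham arrays was 2.25 for Hspa1a, 2.23 for Hspa1b, 1.74 for Hsph1, 1.32 for Bag3 and 0.95 for Dnajb1, against a median of 0.40 over all genes. As large a range was found in 0.75% of genes for Hspa1a, 0.792% for Hspa1b, 1.96% for Hsph1, 4.66% for Bag3 and 11.6% for Dnajb1. At the other end, Hspb1 spanned 0.06 on those arrays, less than 98.0% of genes. The wild-type sham arrays also spread for Hspa1b, over 1.43, a range reached by 0.658% of genes there, so this gene was uneven in that group too. In wild-type CLP the range of Hspa1b was 0.53 and in knockout-labelled CLP 0.99.

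**Figure D3:**
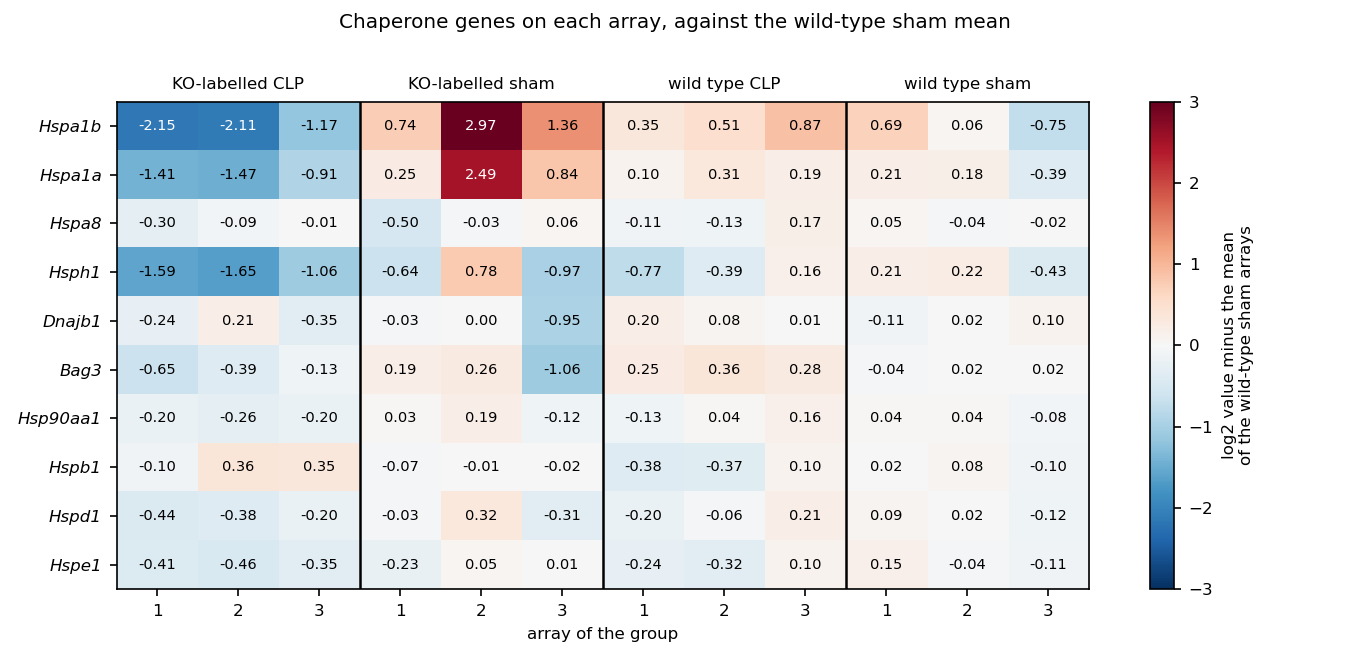
Log2 value of each of the 10 genes on each of the 12 arrays minus the mean of the 3 wild-type sham arrays, red above and blue below that mean. Hspa1b reads -2.15, -2.11 and -1.17 on the knockout-labelled CLP arrays and 0.74, 2.97 and 1.36 on the knockout-labelled sham arrays, and sham array 3 of the knockout-labelled mice is the darkest blue of the Dnajb1 and Bag3 rows.

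CLP minus sham in the wild type shares no array with the comparison that chose the genes, and it is the one that was tested. None of the 10 genes was called in limma's test, where 1.1% of all genes were called higher and 0.059% lower. An unadjusted p under 0.05 was found for 0 of the 10, and for 918 of all 11862 genes. The median of the 10 differences was 0.00, beside -0.03 for all genes. Hspa1b averaged 560.9 ± 108 after CLP and 401.1 ± 190 after sham, a log2 difference of 0.58 ± 0.49 (95% interval -0.49 to 1.64, limma adjusted p = 0.87). Hspa1a differed by 0.20 ± 0.42 (interval -0.71 to 1.11) and Hsph1 by -0.33 ± 0.38 (interval -1.16 to 0.49), with limma adjusted p-values of 0.98 and 0.92. The intervals of these 3 genes are wide and include differences in both directions. The uneven knockout-labelled sham arrays enter that width. The log2 range there was 2.25 for Hspa1a, 2.23 for Hspa1b and 1.74 for Hsph1. It was 0.60, 1.43 and 0.65 in wild-type sham and 0.21, 0.53 and 0.92 in wild-type CLP.

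The more evenly measured genes left narrower intervals. Hsp90aa1 differed by 0.02 ± 0.09 (interval -0.17 to 0.21), Hspa8 by -0.02 ± 0.13 (interval -0.31 to 0.26) and Hspd1 by -0.02 ± 0.15 (interval -0.34 to 0.30), each with a limma adjusted p of 0.99. Hspe1 differed by -0.15 ± 0.12 (adjusted p = 0.85), Hspb1 by -0.22 ± 0.14 (adjusted p = 0.79) and Dnajb1 by 0.10 ± 0.22 (adjusted p = 0.98), also by limma. Bag3 was the one of the 10 genes whose 3 CLP arrays all lay above its 3 sham arrays, a pattern that 10.9% of all genes had. Its signal was 489.3 ± 20 against 397 ± 8.95, with a difference of 0.30 ± 0.27 (limma adjusted p = 0.88). A fit of those 2 groups alone, without the wider spread of the knockout-labelled arrays, gave Bag3 a limma adjusted p of 0.035. The lowest limma adjusted p under any other setting was 0.2, with array weights. Over all 21 probe sets that passed the filter, the lowest limma adjusted p was 0.53, for the weak Hspa8 probe set 1431182_at, at a difference of 0.65 ± 0.28.

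**Figure D4:**
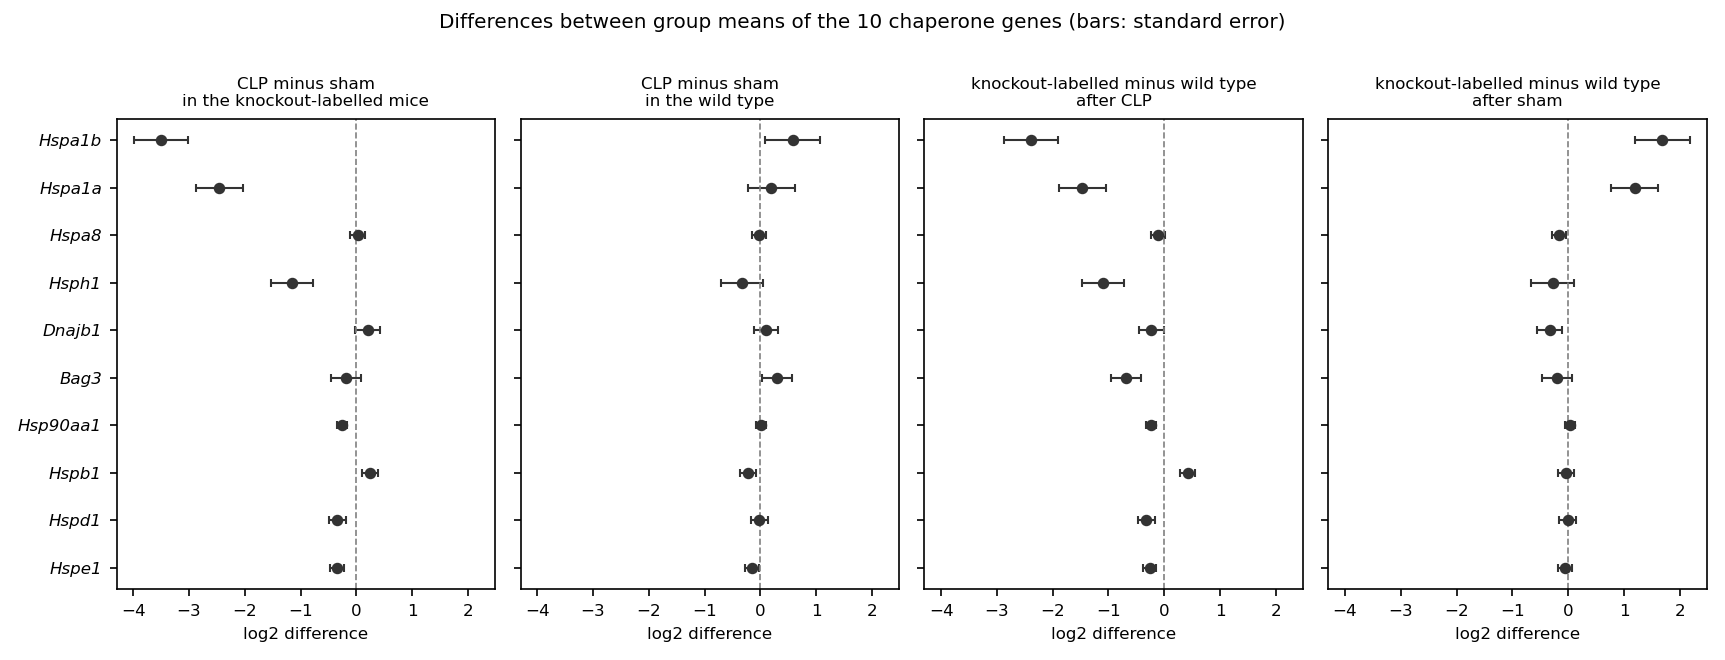
Log2 differences between group means for the 10 genes, points with bars of 1 SE, in 4 comparisons with the scale shared. CLP minus sham lies at -3.50 for Hspa1b and -2.46 for Hspa1a in the knockout-labelled mice, and between -0.33 and 0.58 for all 10 genes in the wild type.

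After CLP, knockout-labelled minus wild type was -2.39 ± 0.49 for Hspa1b, -1.47 ± 0.42 for Hspa1a, -1.10 ± 0.38 for Hsph1 and 0.42 ± 0.14 for Hspb1. These 4 genes were called (3 lower, 1 higher), where 18.7% of all genes were called lower and 13.0% higher. Hsph1 was not called with quantile normalisation or centred arrays and was called in 5 of the 12 fits that left out 1 array. Hspb1 was not called with quantile normalisation and was called in 7 of those 12 fits, and Hspa1a in 9. After sham, the difference was 1.69 ± 0.49 for Hspa1b and 1.19 ± 0.42 for Hspa1a. None of the 10 was called on its representing probe set, where 4.87% of all genes were called higher and 3.89% lower. The other Dnajb1 probe set, 1416755_at, was called higher, at 0.62 ± 0.15. Without knockout-labelled sham array 2 the sham differences of Hspa1b and Hspa1a were 1.05 and 0.54, and without sham array 1 both of these genes were called. The response in the knockout-labelled mice minus that in the wild type was -4.08 ± 0.70 for Hspa1b and -2.66 ± 0.60 for Hspa1a, the 2 of the 10 that were called, where 3.13% of all genes were called lower and 1.85% higher. All these comparisons share arrays with the one that chose the genes, so they are descriptions. The call of Hspa1a in the last of them was kept in 5 of the 12 fits that left out 1 array, at values of -3.13 to -2.01.

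Some other transcripts followed the arrays of Hspa1b closely. Of the other 11861 genes, ranked by Pearson's r of log2 values over the 12 arrays, the nearest were Hspa1a (0.977), Tmem131l (0.958), Tmem63a (0.942), Slc5a3 (0.923) and Gmcl1 (0.921), and the J-domain gene Dnaja4 (0.915) was seventh. The 12 arrays fall into 4 groups, so this measure includes the differences between group means. With each group's mean taken away, the nearest were Hspa1a (0.929), Actg2 (0.923), Icmt (0.917), Snx19 (0.908) and Tufm (0.906), and Hsph1 (0.878) was eighth. On that measure Hspd1 stood at rank 60, Hspe1 at 180 and Hsp90aa1 at 228, while Bag3 stood at 2044 and Dnajb1 at 6091. Among the members the closest by either measure was Hspa1a.

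Markers of several cell types also differed between these groups and arrays, not all in the directions of Hspa1b. The summed signal of 8 cardiac muscle genes was 4020 to 7414 after CLP and 9359 to 14440 after sham in the knockout-labelled mice, against 3258 to 4053 after CLP and 3261 to 3926 after sham in the wild type. In the knockout-labelled mice 7 of the 8 were called lower after CLP than after sham, where 19.9% of all genes were. After sham 7 were called higher in the knockout-labelled mice than in the wild type, where 4.87% of all genes were. The sum was highest on sham array 2, the array with the highest Hspa1b. No cardiac marker was at 0 on any array: the lowest reading was 9.71, for Nppa on knockout-labelled sham array 1, and Actc1, the cardiac actin, read 438 or more on every array. The summed signal of 6 alveolar macrophage genes was 8480 to 8972 after CLP and 2340 to 8994 after sham in the knockout-labelled mice, with sham array 3 at the level of CLP, against 2197 to 2468 after CLP and 2034 to 2345 after sham in the wild type. Of 7 measured neutrophil genes 5 were called higher after CLP in each genotype. Of 8 genes of ciliated cells 4 were called lower after CLP in the knockout-labelled mice, and of 7 endothelial genes 3. Of 2 skeletal muscle, 4 adipocyte and 2 hepatocyte genes that passed the filter, 1, 1 and 0 were called lower there. Of 10 immediate early genes, 3 were called higher after CLP in the knockout-labelled mice and 1 in the wild type. Of all genes, 11.4% were called higher and 19.9% lower after CLP in the knockout-labelled mice. In the wild type 1.1% were called higher and 0.059% lower. The part of these cells in the chaperone signals was not tested. The 3′ to 5′ signal ratio of beta-actin, a sign of RNA integrity, was 1.38 ± 0.0903 after CLP and 1.51 ± 0.0655 after sham in the knockout-labelled mice, and 1.53 ± 0.0895 after CLP and 1.51 ± 0.0239 after sham in the wild type (SD, n = 3 each). That of Gapdh was 0.756 ± 0.0826 after CLP and 0.764 ± 0.0351 after sham in the knockout-labelled mice, and 0.878 ± 0.0304 after CLP and 0.821 ± 0.0178 after sham in the wild type (SD, n = 3 each). The part of RNA integrity was not tested either.

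Beyond the 10 genes, 78 other chaperone genes were listed by role, and 70 had a represented probe set above the filter. In the knockout-labelled mice 19 were called lower after CLP than after sham and 2 higher, of 70, where 19.9% of all genes were called lower and 11.4% higher. Their median difference was -0.10, beside -0.11 for all genes. This split turned with the scaling, as that of all genes did. With arrays centred on their medians 6 were called lower and 20 higher, with a median of 0.12 beside 0.11 for all genes. Of all 11862 genes, 1100 were called lower and 2815 higher in that setting, the background for the centred counts of each list below. Of the genes named in these lists, Hspa12b, Dnaja4, Dnajb2, Fkbp4, Hspb7 and Hspb2 were called lower and Hspa14 and Dnajc5 higher under both scalings, and the other falls were not called with centred arrays. In the wild type 0 of the 70 were called in limma's test. An unadjusted p under 0.05 was found for 1 of the 70, and for 918 of all 11862 genes. The 1 of the 70 was Bag5, an adaptor of Hsp70, at -0.41 ± 0.11 (limma adjusted p = 0.17).

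Among cytosolic Hsp70 and Hsp110 genes (7 measured), Hspa12b fell by 1.74 on the log2 scale after CLP in the knockout-labelled mice, to 44.0 ± 34.0 against 123.3 ± 27.4 after sham (limma adjusted p = 0.014). Hspa2, the Hsp70 best known from the testis, fell by 0.69 (adjusted p = 0.034), while Hspa14, an Hsp70-like protein bound to ribosomes, rose by 0.52 ± 0.11, to 357.8 ± 8.39 against 249.5 ± 30.0 (limma adjusted p = 0.0046). The other Hsp110 genes, Hspa4 and Hspa4l, were not called, at 0.28 ± 0.15 and -0.43 ± 0.16, and the mean over the probe sets of Hspa4 had the opposite sign, at -0.63. With centred arrays 1 of these 7 was called lower and 3 higher. Of 11 J-domain genes 4 fell and 1 rose, where 19.9% of all genes were called lower and 11.4% higher. With centred arrays the balance turned, to 2 lower and 4 higher, as that of all genes did. Dnaja4 fell by 0.82 (limma adjusted p = 0.0012), Dnaja1 by 0.71 (adjusted p = 0.0091) and Dnajb2 by 0.68 (adjusted p = 0.0051), and Dnajc5, which serves at vesicle membranes, rose by 0.38 ± 0.08 (adjusted p = 0.0052). Dnaja2 and Dnajb4 were not called, at 0.14 ± 0.08 and -0.10 ± 0.20.

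Of 9 exchange factors and adaptors 2 fell in the knockout-labelled mice after CLP, where 19.9% of all genes were called lower. Stub1, a ubiquitin ligase that acts on Hsp70 clients, fell by 0.35 (limma adjusted p = 0.0075) and Bag5 by 0.33 (adjusted p = 0.047). Bag5 was also lower in the knockout-labelled mice than in the wild type, by 0.81 ± 0.11 after sham and 0.73 ± 0.11 after CLP. Bag1 and Bag2 were not called, at -0.07 ± 0.09 and -0.60 ± 0.22. With centred arrays 0 of these 9 were called. Of 7 co-chaperones of Hsp90 5 fell, where 19.9% of all genes were called lower, and 1 of the 7 was called lower with centred arrays. Fkbp4, which carries steroid receptors, fell by 1.2 on the log2 scale, to 134.0 ± 22.6 after CLP against 321.2 ± 111 after sham (limma adjusted p = 0.0014). The kinase co-chaperone Cdc37 fell by 0.43, its relative Cdc37l1 by 0.50 and the ATPase activator Ahsa1 by 0.47 (limma adjusted p = 0.0078, 0.0096 and 0.02), and the fifth was Chordc1. Sugt1 and Unc45a were not called, at 0.00 ± 0.17 and -0.03 ± 0.13.

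Of 5 measured small heat shock genes 4 fell in the knockout-labelled mice after CLP, where 19.9% of all genes were called lower. All 4 are known from heart and other muscle: Hspb7 fell by 0.77, Hspb2 by 0.77, Hspb6 by 0.59 and Cryab by 0.58 (limma adjusted p = 0.0079, 0.0029, 0.019 and 0.0061). Hspb7 and Hspb6 were also higher in the knockout-labelled mice than in the wild type after sham, by 1.95 ± 0.18 and 1.26 ± 0.17, at 228.2 ± 48.3 against 55.6 ± 5.97 for Hspb7. Of the cardiac muscle markers given above, 7 of 8 were also called lower after CLP than after sham in the knockout-labelled mice. Between genotypes after sham they were higher, as Hspb7 and Hspb6 were, while Hspb2 (-0.09) and Cryab (0.11) were not called. After CLP, Hspb2 (-0.89) and Cryab (-0.44) were lower in the knockout-labelled mice than in the wild type. The cardiac sum was not lower there. The part of cardiac muscle in these 4 genes was not tested. Hspb8 was not called, at 0.10 ± 0.19. With centred arrays 2 of the 5 were called lower.

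Few of the remaining chaperones were called. Of 12 subunits of the cytosolic chaperonin and prefoldin, which fold actin and tubulin, 1 was called after CLP in the knockout-labelled mice. Of all genes, 19.9% were called lower and 11.4% higher there. The 1 subunit was Pfdn1, which fell by 0.56 (limma adjusted p = 0.028), and the list's median was 0.11. With centred arrays 8 of the 12 were called higher and 0 lower, where 2815 and 1100 of all 11862 genes were. The list's median was then 0.34, beside 0.11 for all genes. The chaperonin subunit Cct4 was higher in the knockout-labelled mice than in the wild type after both operations, by 0.51 ± 0.09 after sham and 0.38 ± 0.09 after CLP, and Tcp1 and Cct3 were not called, at 0.16 ± 0.09 and 0.11 ± 0.09 for CLP minus sham in the knockout-labelled mice. Of 7 mitochondrial chaperones 1 fell, Trap1 by 0.31 (limma adjusted p = 0.042), where 19.9% of all genes were called lower. Hspa9 and Grpel1, which bring proteins into the matrix, were not called at 0.20 ± 0.17 and 0.20 ± 0.14. Of 9 chaperones of the endoplasmic reticulum 0 were called in the knockout-labelled mice after CLP. An unadjusted p under 0.05 was found for 2 of the 9, and for 5141 of all 11862 genes. With centred arrays 4 of the 9 were called higher, where 2815 of all 11862 genes were. Hspa5, the main Hsp70 of the endoplasmic reticulum, differed by 0.11 ± 0.10 and Hsp90b1 by -0.11 ± 0.07. Of 5 listed heat shock factors and regulators 3 were measured, Hsf4, Hsbp1 and Hspbap1. Hsf1, the gene of heat shock factor 1, and Hsf2 had no represented probe set above the filter. Of the 3 measured 0 were called, and 1, Hspbap1 at -0.63, had an unadjusted p under 0.05. Hsf4 differed by -0.60 ± 0.31 and Hsbp1 by -0.03 ± 0.12.

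Between genotypes, 3 of the 70 were called higher and 2 lower after sham (4.87% and 3.89% of all genes), and 6 higher and 16 lower after CLP (13.0% and 18.7% of all genes). The lower ones after CLP included Fkbp4 (-1.23 ± 0.21), Stub1 (-0.47 ± 0.08), Bag6 (-0.38 ± 0.10), Hyou1, an endoplasmic reticulum exchange factor (-0.63 ± 0.13), and Serpinh1, the collagen chaperone (-0.67 ± 0.21). The response in the knockout-labelled mice minus that in the wild type was called for 1 of the 70, Dnaja4, at -0.82 ± 0.19 (limma adjusted p = 0.036, with 0.0089 to 0.09 over the fits that left out 1 array, and called in 2 of those 12). With centred arrays Dnaja4 was not called there (-0.70, limma adjusted p = 0.057), and Hspa14 was called in the other direction (0.71, limma adjusted p = 0.033). Without knockout-labelled sham array 3, 11 of the 70 were called in that comparison. The share of all genes called in that fit is not given here, so the rise is not read as particular to chaperones.

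**Figure D5:**
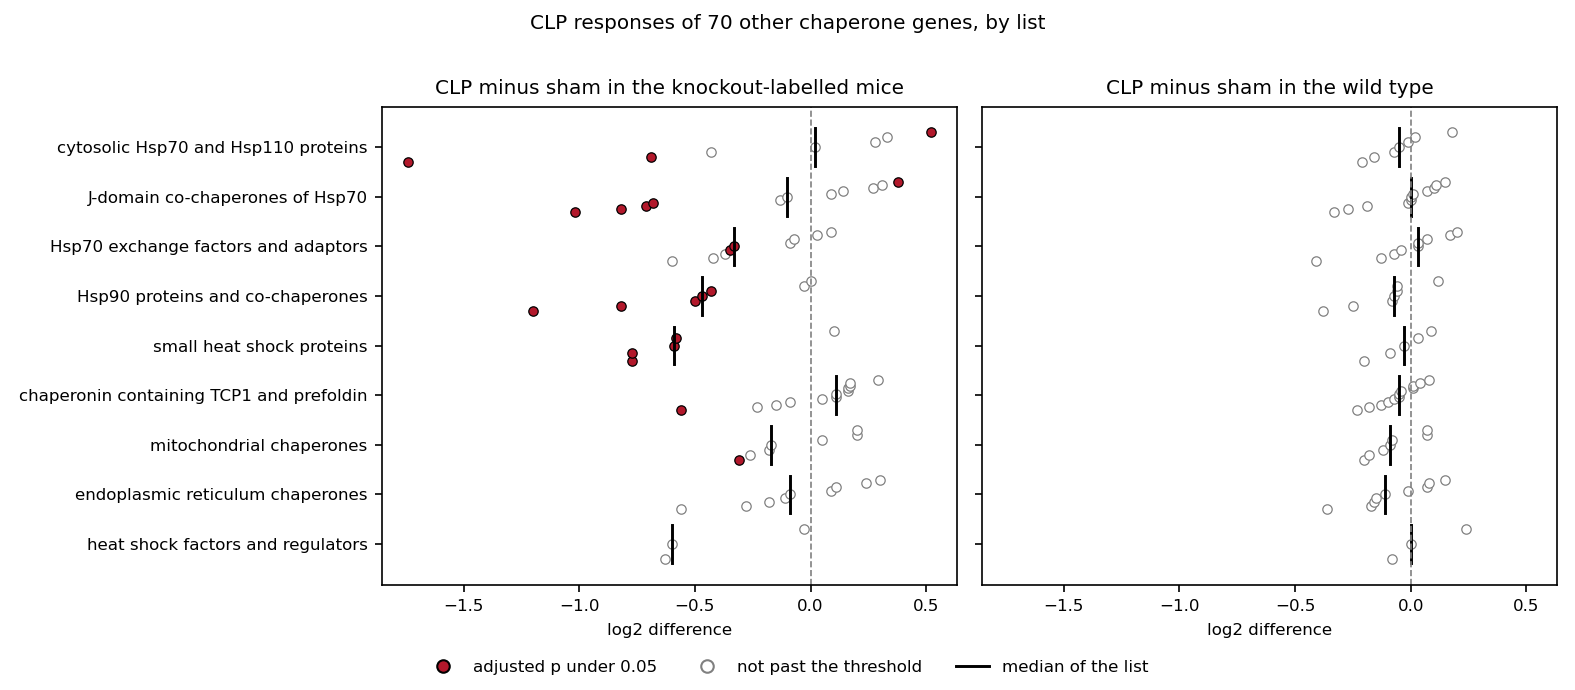
Log2 difference between CLP and sham for the 70 other chaperone genes, 1 point per gene, by list, in the knockout-labelled mice (left) and the wild type (right), with filled points past an adjusted p of 0.05 and a line at each list's median. In the knockout-labelled mice 21 points are filled, 5 of them co-chaperones of Hsp90 and 4 small heat shock genes, and in the wild type none is.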

How the data were processed

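The authors deposited a linear signal intensity per probe set for 12 Affymetrix 3′ arrays, with GCOS, MAS5 and the Affymetrix Expression Console named in the submitters' processing notes, without versions or roles. The intensities had been scaled: the mean between the lowest and highest 2% was 150.0 on every array. The table has 45101 probe sets, 64 of them controls. The platform table gives 34945 probe sets 1 symbol, 932 several and 9160 none, and only those with 1 are named. Of them, 34754 matched a RefSeq gene (GRCm38.p6).

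Values were used as log2(signal + 3.47), the added 3.47 being 10% of the median array median of 34.7, which understates changes of weak genes. The filter left 24574 probe sets. These were fitted in 1 model with 4 group means and no covariates (limma 3.58.1 in R 4.3.3, eBayes with an intensity trend), with Benjamini-Hochberg adjustment within each comparison over all of them. For arrays, their number limits the precision. The script was tested on simulated data. The 10 genes, the lists of other chaperones and markers and the rule for naming were chosen with earlier results of these data known. The rule names the 10 genes and, per list, the called genes with the smallest p (up to 4), any against the rest and up to 2 not called. Chordc1, Hspbap1 and Actc1 were named after their values were seen. Promoters come from RefSeq (GRCm38.p6). Alternatives were other scalings, pseudocounts, filters, moderation, weights, a replicate block, 2-group fits, the mean over a gene's probe sets, and fits that each lacked 1 array.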

Additional observations from a re-analysis of the deposited data

Results flagged for a closer look

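In the model, the interaction term (the response to CLP in the knockout-labelled mice less that in the wild type) passed the threshold for 3 of the chaperone genes named. For Hspa1b it was -4.08 ± 0.70 (log2), made of -3.50 ± 0.49 in the knockout-labelled mice and 0.58 ± 0.49 in the wild type. For Hspa1a it was -2.66 ± 0.60, made of -2.46 ± 0.42 and 0.20 ± 0.42. Both genes were chosen by the knockout-labelled response, which makes up most of each value, so these are descriptions with no test. For Dnaja4 it was -0.82 ± 0.19 (limma adjusted p = 0.036), made of -0.82 ± 0.14 in the knockout-labelled mice and 0.01 ± 0.14 in the wild type. The Dnaja4 call was kept in 2 of the 12 fits that left out 1 array (limma adjusted p = 0.0089 to 0.09) and was lost with arrays centred on their medians (limma adjusted p = 0.057). With 3 arrays in each group, no gene was tested for a single outlying array.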

How the results depend on the processing

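Of the 10 genes, CLP against sham in the knockout-labelled mice called 5, with 3 after centring arrays on their medians (1 higher, 2 lower), 2 with no filter, 2 with no intensity trend, 2 with only the 2 groups compared and 3 with the replicate number as a block, and 2 to 6 with an array left out. In the wild type it called 0, with 1 when only the 2 groups were compared and 0 to 0 with an array left out. Knockout-labelled against wild type after sham called 0, with 1 each under quantile normalisation, a pseudocount of 50% of the median and array weights, and 0 to 2 with an array left out. After CLP it called 4, with 2 without the filter, 2 without the trend, 7 with array weights and 1 to 6 with an array left out. The interaction called 2, with 5 under array weights and 1 to 3 with an array left out. Of the 70 other chaperones, these comparisons called 21 (32 with array weights, 5 with only the 2 groups compared, 15 to 25 with an array left out), 0 (1 and 2 under the same settings, 0 to 1), 5 (9 with array weights, 4 to 6), 22 (35 with array weights, 13 to 30) and 1 (0 without the filter, 0 without the trend, 2 with a filter of 9 arrays, 17 with array weights, 0 to 11). Array weights gave knockout-labelled sham array 3 a weight of 0.193, the lowest. The share of all genes called is not set beside these counts, so their rises and falls are not read as particular to chaperones. Of 5772 values of single genes under alternatives, 5268 kept direction and side of the threshold, 225 lost and 142 gained a call, 136 moved and 1 reversed: Hspa4 in the knockout-labelled mice, 0.28 on its representing probe set, was -0.63 over the mean of its probe sets. The causes were not tested. Deviations of same-numbered arrays correlated at only -0.10 to 0.12, which gave no sign of pairing by replicate number. Differently numbered arrays were not compared, so this cannot settle whether same-numbered arrays were handled together. The block left 3 of 4 genes called after CLP between genotypes, 18 and 23 of the other chaperones (CLP against sham in the knockout-labelled mice, and between genotypes after CLP), and 4 and 1 in the sham comparison and the interaction. Probe sets near the array median, such as Hspa8 1431182_at, carry the least precise values.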
